A study of Mus musculus with 8 samples.

Results

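The Wnt pathway genes described here are 10: the modulators Dact1, Nkd1, Sfrp1 and Dkk3, the targets Axin2, Lef1 and Lgr5, the transcription factors Tcf7l1 and Tcf7l2, and Ctnnb1, which encodes beta-catenin. Every probe set that the platform annotation gives to one of these symbols alone was taken, 27 of the 45037 probe sets tested, and the 10 genes stand among 18193 named on the array. The genes were chosen by their log2 differences between FoxO3 null and wild type arrays in an earlier look at these data, so these differences are given as a description and are not evidence that the pathway changed. The arrays carried RNA of secondary neurospheres, spheres of neural stem and progenitor cells regrown from dissociated first spheres. The FoxO3 null group is FoxO3-/- and the wild type group FoxO3+/+, both from forebrains of mice of the FVB/N strain, with 4 arrays each. Spheres of either genotype were grown without serum in NeuroBasal-A medium with B27 and with bFGF and EGF at 20 ng/ml each, at a seeding density of 50000 cells/ml, and taken on day 6, so no array shows cells without these growth factors. The titles number the arrays within set 1 and set 2, each with 2 arrays per genotype. What distinguishes the sets is not in the labels, nor is the age of the mice or whether paired arrays hold RNA of different cultures or animals. P-values thus reflect the spread among these 8 arrays alone, and that spread could be technical.

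In canonical Wnt signalling, a Wnt ligand bound to a Frizzled receptor and an Lrp co-receptor stops the Axin and Apc complex from marking beta-catenin for destruction. Beta-catenin then enters the nucleus, binds TCF and LEF factors and switches on targets, among them feedback inhibitors such as Axin2 and Nkd1. In the adult forebrain the pathway is known for its part in the proliferation of neural stem cells and the making of new neurons, and beta-catenin is also known to bind FoxO factors. FoxO3 is a forkhead transcription factor that insulin and growth factor signalling through Akt keeps out of the nucleus.

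The sequences shown are the 250 bases upstream of annotated starts of Dact1 and Tcf7l2, the modulator and the transcription factor with a probe set that passed the genotype test. The start of Dact1 and both starts of Tcf7l2 are from RefSeq on GRCm38.p6, all on the plus strand, printed 5′ to 3′. Capitals mark the letters TGTTTAT, the reverse strand of the forkhead motif ATAAACA.
Dact1, chr12:71309634-71309883: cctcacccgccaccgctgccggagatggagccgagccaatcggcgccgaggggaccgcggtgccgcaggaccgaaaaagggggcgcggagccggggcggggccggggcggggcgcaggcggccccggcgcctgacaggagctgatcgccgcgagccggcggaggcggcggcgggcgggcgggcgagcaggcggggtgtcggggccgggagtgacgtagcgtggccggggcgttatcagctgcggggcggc
Tcf7l2, chr19:55741560-55741809: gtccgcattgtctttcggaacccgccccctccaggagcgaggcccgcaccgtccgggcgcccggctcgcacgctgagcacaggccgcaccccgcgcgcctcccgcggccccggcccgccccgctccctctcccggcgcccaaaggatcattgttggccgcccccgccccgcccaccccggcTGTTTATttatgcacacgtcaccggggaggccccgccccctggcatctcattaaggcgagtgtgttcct
Tcf7l2, chr19:55895071-55895320: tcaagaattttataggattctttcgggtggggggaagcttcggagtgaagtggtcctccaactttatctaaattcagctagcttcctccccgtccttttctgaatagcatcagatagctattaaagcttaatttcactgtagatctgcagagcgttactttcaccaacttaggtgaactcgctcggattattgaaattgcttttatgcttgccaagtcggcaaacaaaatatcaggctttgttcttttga
G and C made up 80.4% of the Dact1 window, 72.8% of the upstream Tcf7l2 window and 40.8% of the downstream one, against a median of 52.4% over the 32851 windows in the RefSeq table. The table held 12 windows for 7 of the 10 genes, and Lgr5, Sfrp1 and Dkk3 were not matched. The motifs CTTTGAT and CTTTGAA, bound by TCF and LEF factors, and GTAAACA and ATAAACA, bound by forkhead factors, were searched on both strands, and were chosen after the promoters had been seen. ATAAACA was present in 1 of the 12 windows, at the upstream Tcf7l2 start, 69 bases before it, and the other 3 motifs in 0 of 12. Over all windows of this length, CTTTGAT was present in 3.21%, CTTTGAA in 4.46%, GTAAACA in 3.17% and ATAAACA in 4.16%. A match of letters is a description of the window and no sign of binding.

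Both of the brightest Foxo3 probe sets had lower values in FoxO3 null arrays. Probe set 1434831_a_at lay between 8.86 and 9.14 in FoxO3 null arrays, against 10.00 to 10.32 in wild type arrays (log2), which left 44.5% of the wild type signal, and 1434832_at was left at 47.8%. Probe set 1444226_at, shared with another gene, was lower by a log2 difference of -0.48, and the dim 1450236_at had 0.33 and did not pass. The deleted part of Foxo3 is not named in the labels. The labelled cell type was checked by markers. All 7 neural stem and progenitor markers lay above the array median, and 0 of them passed the genotype test. At an unadjusted limma p under 0.05 there were 4 of the 7, beside 14.5% of all genes. Of these 4, Nes was higher, at a log2 difference of 0.29 (limma adjusted p = 0.057). Sox2 at -0.26, Msi1 at -0.28 and Pax6 at -0.18 were lower. Vim differed by -0.03, Prom1 by 0.02 and Fabp7 by 0.00. Of the oligodendrocyte progenitor markers 4 of 6 passed and were lower in FoxO3 null arrays, beside 0.874% of all genes that passed as lower. Olig1, at a log2 difference of 0.05, and Olig2, at -0.04, did not pass. The mean over the list ranged from 9.35 to 10.02 in FoxO3 null and 9.74 to 10.36 in wild type arrays. Within each set it was below wild type, by a difference of -0.35 in set 1 and -0.37 in set 2. Of 6 neuron markers Gad1 passed and was lower, at a log2 difference of -0.91. Rbfox3 at 0.15, Tubb3 at 0.10, Syt1 at 0.07, Snap25 at -0.35 and Dcx at -0.28 did not pass. The list mean was 6.41 to 6.63 in FoxO3 null and 6.64 to 6.76 in wild type arrays. Of 6 astrocyte markers Slc1a2 passed and was lower, at a log2 difference of -0.84. Gfap at 0.20, Aldh1l1 at 0.06, Aqp4 at -0.32, Slc1a3 at -0.06 and the dim Gjb6 at -0.02 did not pass. The list means were 9.09 to 9.39 in FoxO3 null and 9.28 to 9.53 in wild type arrays. Of the mature oligodendrocyte markers 0 of 4 passed (limma, 2 at an unadjusted p under 0.05), with list means of 8.07 and 8.22 in FoxO3 null against 7.50 and 7.44 in wild type arrays of set 1, and 9.98 and 10.42 in FoxO3 null against 10.25 and 10.06 in wild type arrays of set 2. Fitted in set 1 alone, where 0.0933% of all probe sets passed, Mbp passed and was higher by 0.87 (limma adjusted p = 0.0338). Gad1, Pdgfra and Slc1a2 also passed in set 1 alone and were lower. In set 2 alone, where 0.324% of all probe sets passed, Slc1a2 and Cspg4 passed and were lower. Of 22 markers of microglia, endothelium, ependyma, choroid plexus and mural cells 0 passed (limma, 3 at an unadjusted p under 0.05), 16 lay below the array median, and the list means ranged from 5.45 to 6.30 in FoxO3 null and 5.43 to 6.23 in wild type arrays. Averaged over Uty, Kdm5d and Eif2s3y, the Y-linked signal lay between 6.88 and 8.09 in FoxO3 null and between 7.66 and 8.35 in wild type arrays, below wild type within each set. The actin control's 3′ signal exceeded its 5′ signal, a measure of RNA quality, by between 0.33 and 0.49 in FoxO3 null and between 0.36 and 0.54 in wild type arrays. In set 1 the FoxO3 null arrays lay below wild type, and in set 2 the genotypes overlapped. The same held for the Gapdh control, at -0.11 to -0.09 in FoxO3 null and -0.11 to -0.07 in wild type arrays. The part that these measures have in the differences below was not tested beyond the fit with the Y-linked mean given there, and fewer cells of a type cannot be told apart from less RNA per cell.

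Of the 27 probe sets, 3 passed the comparison of FoxO3 null with wild type arrays (limma with set as a term, Benjamini-Hochberg adjusted p under 0.05 over all probe sets), where 0.802% of all probe sets passed. Dact1 (1417937_at) and a Tcf7l2 probe set (1426639_a_at) were higher in the FoxO3 null arrays, where 0.215% of all probe sets passed as higher, and Lgr5 (1450988_at) was lower, where 0.586% passed as lower. The other 24 probe sets had log2 differences between -0.10 and 0.15. An unadjusted limma p under 0.05 was found in 4 of the 27, these 3 and Ctnnb1 1430533_a_at, beside 12.7% of all probe sets. Since the genes were picked with this contrast in view, nothing is read from these shares.

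Dact1, also called Dapper, encodes a cytoplasmic protein that binds Dishevelled and antagonises Wnt signalling, and lies on chromosome 12 from 71309884 to 71320107 (GRCm38.p6). It is measured by 1 probe set. In set 1 the FoxO3 null arrays read 9.39 and 9.46, against 8.78 and 8.74 in wild type (log2). In set 2 the FoxO3 null arrays read 8.29 and 8.23, against 7.31 and 7.58 in wild type. Each FoxO3 null array lay above each wild type array of its own set, while across sets the genotypes overlapped, because both were lower in set 2. Averages were 8.85 ± 0.67 in FoxO3 null and 8.10 ± 0.77 in wild type arrays (SD, n = 4 each). With set as a term the log2 difference was 0.74 ± 0.07 (SE, 95% interval 0.59 to 0.90), a 1.68-fold higher signal in FoxO3 null spheres. The difference was 0.67 in set 1 and 0.82 in set 2. With a Y-linked covariate it was 0.60 and did not pass.

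The feedback inhibitor Nkd1, which encodes Naked cuticle 1, another protein that binds Dishevelled, lies on chromosome 8 from 88521342 to 88594887 and has 4 probe sets, of which 1429506_at and 1429507_at were designed on the same sequence. Its brightest, 1429506_at, read 8.47, 8.68, 8.83 and 8.70 in FoxO3 null arrays, against 8.63, 8.92, 8.70 and 8.77 in wild type arrays (log2; values of 4 arrays are given with those of set 1 before those of set 2 from here on). The genotypes overlapped, and the log2 difference was -0.09 ± 0.08 (SE, 95% interval -0.27 to 0.10). The other 3 Nkd1 probe sets differed by -0.04, -0.02 and -0.01. None of the 4 passed.

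Sfrp1 encodes a secreted Frizzled-related protein that binds Wnt ligands outside the cell, and lies on chromosome 8 from 23411383 to 23449632. Of its 5 probe sets, 1416594_at, 1448395_at and 1460187_at were designed on the same sequence. The brightest, 1428136_at, read 7.83, 8.04, 7.38 and 7.48 in FoxO3 null and 7.87, 8.16, 7.23 and 7.40 in wild type arrays (log2). The genotypes overlapped in each set, and the log2 difference was 0.02 ± 0.08 (SE, 95% interval -0.17 to 0.21). Sfrp1 probe set 1448395_at read 7.54, 7.45, 7.61 and 7.50 in FoxO3 null and 7.68, 7.90, 7.31 and 7.37 in wild type arrays. Its FoxO3 null arrays lay below wild type in set 1 and above it in set 2, a split in opposite directions that 5.62% of all probe sets had, with differences of -0.30 and 0.21 and -0.04 ± 0.10 (SE) over both sets. The other Sfrp1 probe sets differed by 0.03, 0.09 and -0.01, and the last of these, 1460187_at, lay below the median level of the array. None of the 5 passed.

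Dkk3 encodes a secreted protein of the Dickkopf family and lies on chromosome 7 from 112116019 to 112159482. Both of its probe sets were designed on the same sequence and lay below the median level of the array, where RMA values compress differences. The brighter, 1448669_at, read 5.68, 5.66, 5.41 and 5.63 in FoxO3 null and 5.61, 5.89, 5.71 and 5.58 in wild type arrays (log2). Its log2 difference was -0.10 ± 0.08 (SE), the other's 0.02 ± 0.07, and the genotypes overlapped in both.

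**Figure D1:**
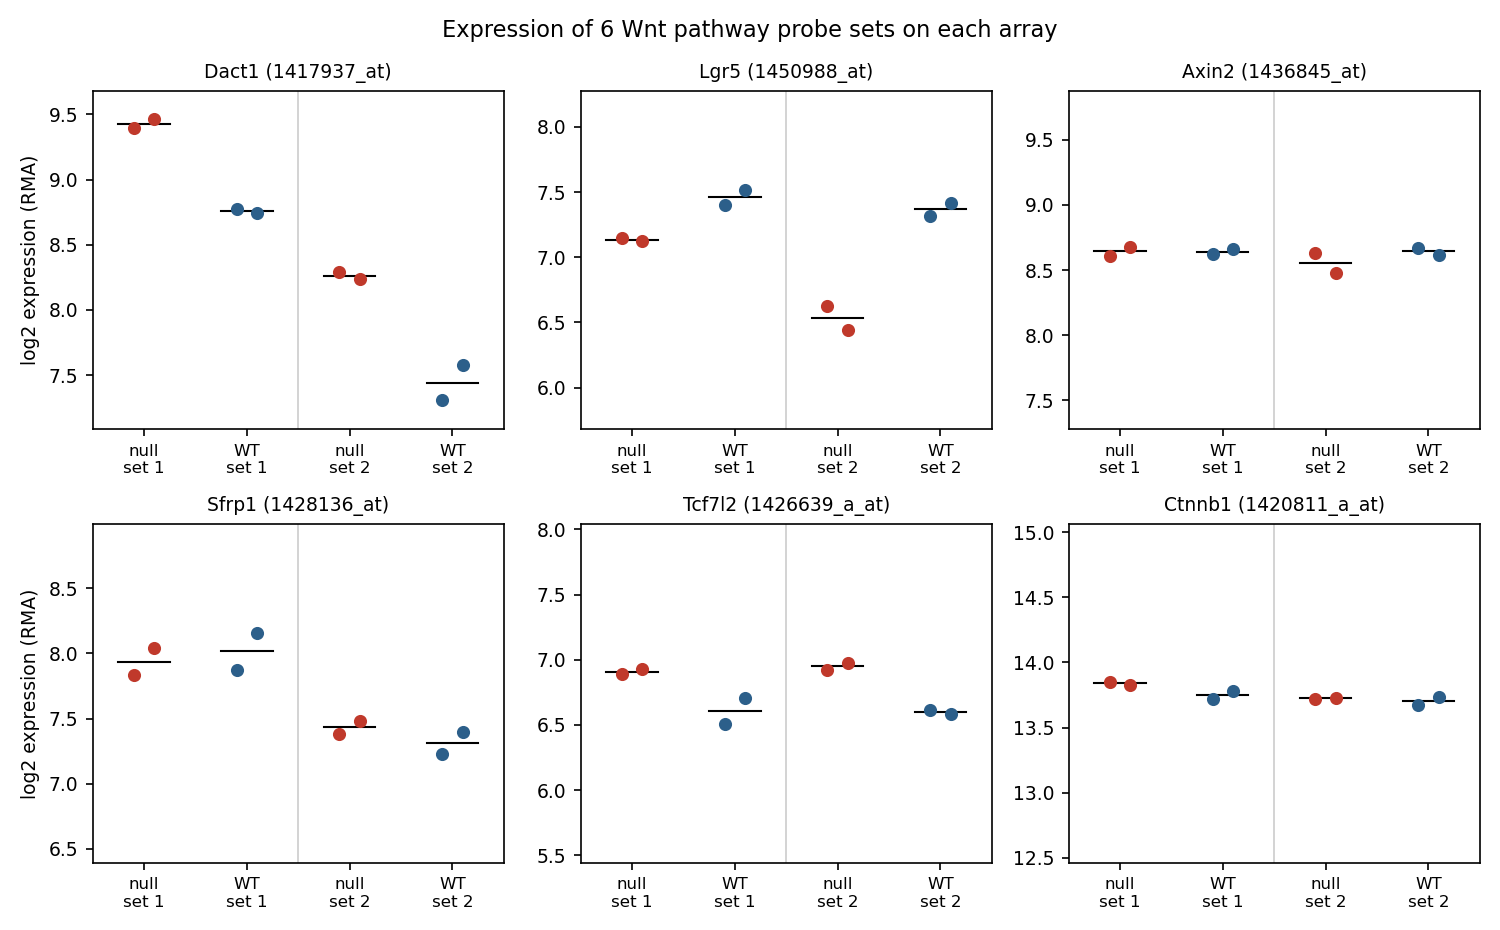
Log2 expression of 6 probe sets, 1 panel each, on the 8 arrays. Red points are FoxO3 null (null) and blue points wild type (WT) arrays, black lines the mean of the 2 arrays of a set and genotype, and each panel spans the same number of log2 units at its own level. FoxO3 null arrays lie above wild type in both sets for Dact1 and Tcf7l2 1426639_a_at and below it for Lgr5, while the genotypes overlap in both sets for Axin2 and Sfrp1.

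Axin2 is a scaffold of the beta-catenin destruction complex and a direct transcriptional target widely read as a gauge of canonical Wnt signalling. It lies on chromosome 11 from 108917828 to 108950783. Probe set 1436845_at read 8.61, 8.68, 8.63 and 8.48 in FoxO3 null and 8.62, 8.66, 8.67 and 8.61 in wild type arrays (log2). The genotypes overlapped, with averages of 8.60 ± 0.09 and 8.64 ± 0.03 (SD, n = 4 each). The log2 difference was -0.04 ± 0.06 (SE), and its 95% interval of -0.17 to 0.08 does not reach the size of the Dact1 or Lgr5 differences. The dim probe set 1421341_at read 5.37, 5.36, 5.44 and 5.61 in FoxO3 null and 5.34, 5.36, 5.35 and 5.24 in wild type arrays, with a log2 difference of 0.12 ± 0.07 that did not pass.

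Lef1 encodes a DNA-binding partner of beta-catenin that is itself a Wnt target, on chromosome 3 from 131110297 to 131224357. Both probe sets lay below the median level of the array. Probe set 1454734_at read 5.65, 5.61, 5.81 and 5.92 in FoxO3 null and 5.65, 5.83, 5.81 and 5.69 in wild type arrays (log2), a log2 difference of 0.00 ± 0.07 (SE). Probe set 1421299_a_at differed by 0.07 ± 0.07, and the genotypes overlapped in both.

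Lgr5 encodes a receptor for R-spondins, secreted proteins that raise Wnt signalling by taking Frizzled-degrading ligases off the cell surface, and is a Wnt target that marks stem cells of the intestine. It lies on chromosome 10 from 115450314 to 115587780, 73.2 megabases from Foxo3 on the same chromosome. Probe set 1450988_at read 7.15 and 7.12 in FoxO3 null arrays of set 1, against 7.40 and 7.52 in wild type (log2). In set 2 it read 6.62 and 6.44 in FoxO3 null arrays, against 7.32 and 7.42 in wild type. All 4 FoxO3 null arrays lay below all 4 wild type arrays, and the wild type arrays of both sets lay close together. Averages were 6.83 ± 0.36 in FoxO3 null and 7.41 ± 0.08 in wild type arrays (SD, n = 4 each), a log2 difference of -0.58 ± 0.10 (SE, 95% interval -0.80 to -0.36) that left 66.9% of the wild type signal. The difference was -0.32 in set 1 and -0.83 in set 2. With a Y-linked covariate it was -0.35 and did not pass. The second probe set, 1444519_at, read between 5.04 and 5.10 in FoxO3 null and between 4.97 and 5.10 in wild type arrays. It lay below the median level of the array and differed by 0.02 ± 0.05, so the lower Lgr5 signal rests on 1 probe set.

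Tcf7l1 encodes a TCF factor known mainly as a repressor of Wnt targets in stem cells, on chromosome 6 from 72626371 to 72789045. Probe set 1436207_at read 8.91, 8.87, 8.96 and 8.91 in FoxO3 null and 8.95, 8.93, 8.90 and 9.0 in wild type arrays (log2), a difference of -0.03 ± 0.05 (SE). Probe set 1450117_at read 8.79, 8.75, 8.61 and 8.52 in FoxO3 null and 9.0, 8.94, 8.55 and 8.60 in wild type arrays, a difference of -0.10 ± 0.06. Neither passed, and the FoxO3 null arrays of set 1 lay below wild type in both.

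Tcf7l2, also called TCF4 in the Wnt field, encodes a main nuclear partner of beta-catenin, with many splice forms, and lies on chromosome 19 from 55741797 to 55933659. Its 4 probe sets did not move alike. Probe set 1426639_a_at read 6.89, 6.93, 6.92 and 6.98 in FoxO3 null arrays, against 6.51, 6.71, 6.62 and 6.59 in wild type arrays (log2). The genotypes did not overlap, and averages were 6.93 ± 0.04 and 6.60 ± 0.08 (SD, n = 4 each). The log2 difference was 0.33 ± 0.06 (SE, 95% interval 0.20 to 0.45), a 1.25-fold higher signal, with 0.30 in set 1 and 0.35 in set 2. With a Y-linked covariate it was 0.28 and did not pass.

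The brightest Tcf7l2 probe set, 1429428_at, read 8.23, 8.20, 8.36 and 8.55 in FoxO3 null and 8.32, 8.14, 8.56 and 8.34 in wild type arrays (log2). The genotypes overlapped, and its 95% interval of -0.16 to 0.15 does not reach the estimate for 1426639_a_at. Probe set 1425229_a_at read 6.75, 6.67, 7.42 and 7.25 in FoxO3 null and 6.72, 6.77, 7.0 and 7.01 in wild type arrays, with FoxO3 null above wild type in set 2 alone. Probe set 1429427_s_at, designed on the same sequence as 1429428_at, read 6.08, 6.41, 6.86 and 7.17 in FoxO3 null and 6.26, 6.07, 7.08 and 6.61 in wild type arrays, a difference of 0.12 ± 0.12 (SE). Which Tcf7l2 transcript each probe set reads was not analysed here, and the windows at both annotated starts are those printed above.

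**Figure D2:**
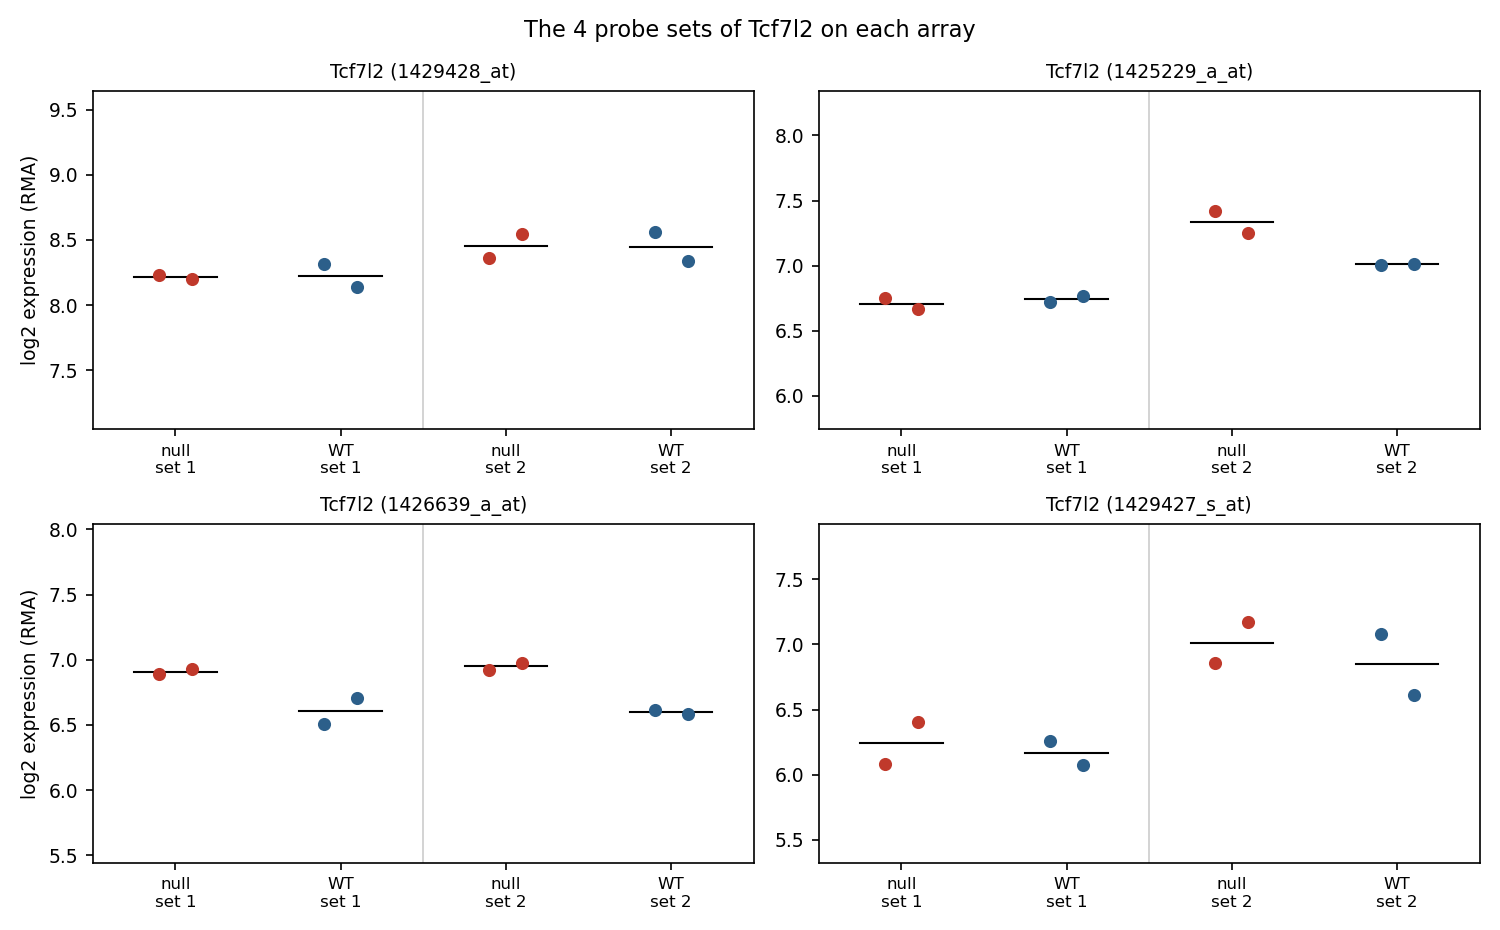
Log2 expression of the 4 Tcf7l2 probe sets on the 8 arrays, FoxO3 null (null) in red and wild type (WT) in blue, with the mean of the 2 arrays of a set and genotype as a line. The genotypes separate in both sets for 1426639_a_at, in set 2 alone for 1425229_a_at and in neither set for the other two.

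Ctnnb1 encodes beta-catenin, which carries the Wnt signal to the nucleus and also links cadherins to the cytoskeleton, and lies on chromosome 9 from 120933400 to 120960507. Probe set 1420811_a_at read 13.85, 13.83, 13.72 and 13.73 in FoxO3 null and 13.72, 13.78, 13.68 and 13.73 in wild type arrays (log2), a difference of 0.05 ± 0.05 (SE, 95% interval -0.06 to 0.17). Probe set 1450008_a_at, designed on the same sequence, differed by 0.06 ± 0.05. In 1430533_a_at the FoxO3 null arrays read 11.46, 11.41, 11.54 and 11.47, all above the wild type arrays at 11.30, 11.40, 11.34 and 11.35, and the difference of 0.12 ± 0.05 did not pass. Arrays read mRNA, so the amount and place of beta-catenin protein are not measured.

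Over the 12 modulator probe sets the median log2 difference was -0.01, with 1 higher, 0 lower and 11 not passing, and over the 6 target probe sets it was 0.01, with 0 higher, 1 lower and 5 not passing. For the 9 probe sets of the TCF factors and Ctnnb1 the median was 0.06, with 1 higher and 8 not passing. The median over all 45037 probe sets was 0.0098. The median size of the difference, without its sign, was 0.05 over the 27 and 0.06 over all probe sets. Groups did not overlap in 3 of the 27, where 3.11% of all probe sets had groups that did not overlap. FoxO3 null arrays lay above wild type in Tcf7l2 1426639_a_at and Ctnnb1 1430533_a_at, beside 1.78% of all probe sets, and below it in Lgr5 1450988_at, beside 1.33%. Fitted in set 1 alone, 0 of 27 passed and 5 had an unadjusted limma p under 0.05, where 0.0933% of all probe sets passed and 8.67% had such an unadjusted p. In set 2 alone, 2 passed, Dact1 and Lgr5, and 6 had an unadjusted p under 0.05, where 0.324% and 11.1% of all probe sets did. The sign of the difference was shared by the sets in 13 of 27 probe sets, or 48.1%, and in 55.6% of all probe sets. Of the 3 passing probe sets, Dact1 passed without each of the 8 arrays in turn. Lgr5 passed in 1 of these 8 fits, without the FoxO3 null array 1_1, and Tcf7l2 1426639_a_at in 1, without the wild type array 1_2.

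**Figure D3:**
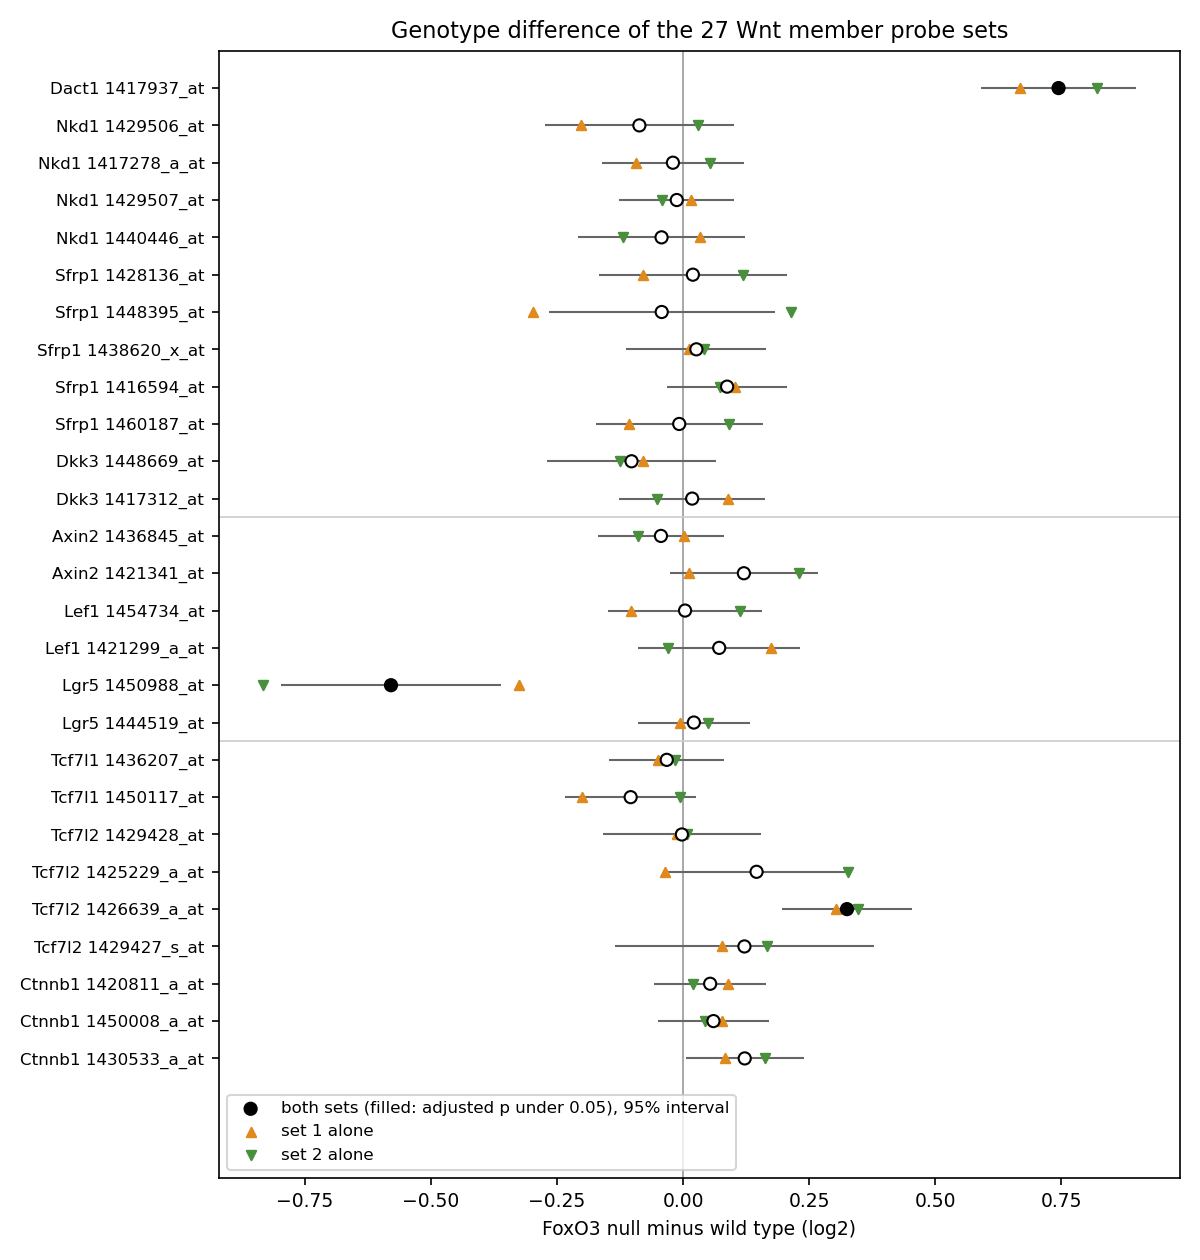
FoxO3 null minus wild type differences (log2) of the 27 probe sets, in the order modulators, targets, and TCF factors with Ctnnb1. Circles give the fit over both sets with 95% intervals, filled where the adjusted p was under 0.05, and triangles the difference in set 1 (up) and set 2 (down). Dact1, Lgr5 and 1 Tcf7l2 probe set are filled, and the other 24 lie between -0.10 and 0.15. Among these 24 the interval of Ctnnb1 1430533_a_at, 0.005 to 0.24, also excludes 0.

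Whether the genotype difference itself differed between the sets was tested with an interaction term. It passed in 0 of 27 probe sets (limma, Benjamini-Hochberg over all probe sets), with 3 at an unadjusted p under 0.05, where 0.0688% of all probe sets passed and 7.54% had such an unadjusted p. In Lgr5 1450988_at the difference was more negative in set 2 by -0.51 ± 0.12 (SE, 95% interval -0.79 to -0.23, limma adjusted p = 0.295). The other 2 were Sfrp1 1448395_at, at 0.51 ± 0.13 (limma adjusted p = 0.334), and Tcf7l2 1425229_a_at, at 0.36 ± 0.12 (limma adjusted p = 0.485). For Dact1 the term was 0.15 ± 0.14 and for Tcf7l2 1426639_a_at it was 0.04 ± 0.12.

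The genes also varied between sets, in a fit that averages the set difference over both genotypes. Set 2 differed from set 1 in 9 of 27 probe sets, or 33.3%, where 38.4% of all probe sets did (limma, genotype as a term). Dact1 was lower in set 2 by a log2 difference of -1.24 ± 0.07 (SE, limma adjusted p = 1.93e-06), which is larger than its genotype difference, so that its set 2 FoxO3 null arrays read below its set 1 wild type arrays. Sfrp1 was lower in set 2 in 1428136_at, by -0.60 ± 0.08, and in 1438620_x_at, by -0.58 ± 0.06. Lgr5 1450988_at was lower by -0.35 ± 0.10 and Tcf7l1 1450117_at by -0.30 ± 0.06. In wild type arrays Lgr5 1450988_at read 7.40 and 7.52 in set 1 and 7.32 and 7.42 in set 2. Its FoxO3 null arrays read 7.15 and 7.12 in set 1 and 6.62 and 6.44 in set 2. Tcf7l2 was higher in set 2 in 3 of its 4 probe sets, by 0.73 ± 0.12 in 1429427_s_at, 0.45 ± 0.08 in 1425229_a_at and 0.23 ± 0.07 in 1429428_at. The Tcf7l2 probe set 1426639_a_at, which differed between genotypes, had a set difference of 0.02 ± 0.06. Ctnnb1 1450008_a_at was higher by 0.18 ± 0.05, and no Axin2, Lef1, Nkd1 or Dkk3 probe set differed between sets.

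**Figure D4:**
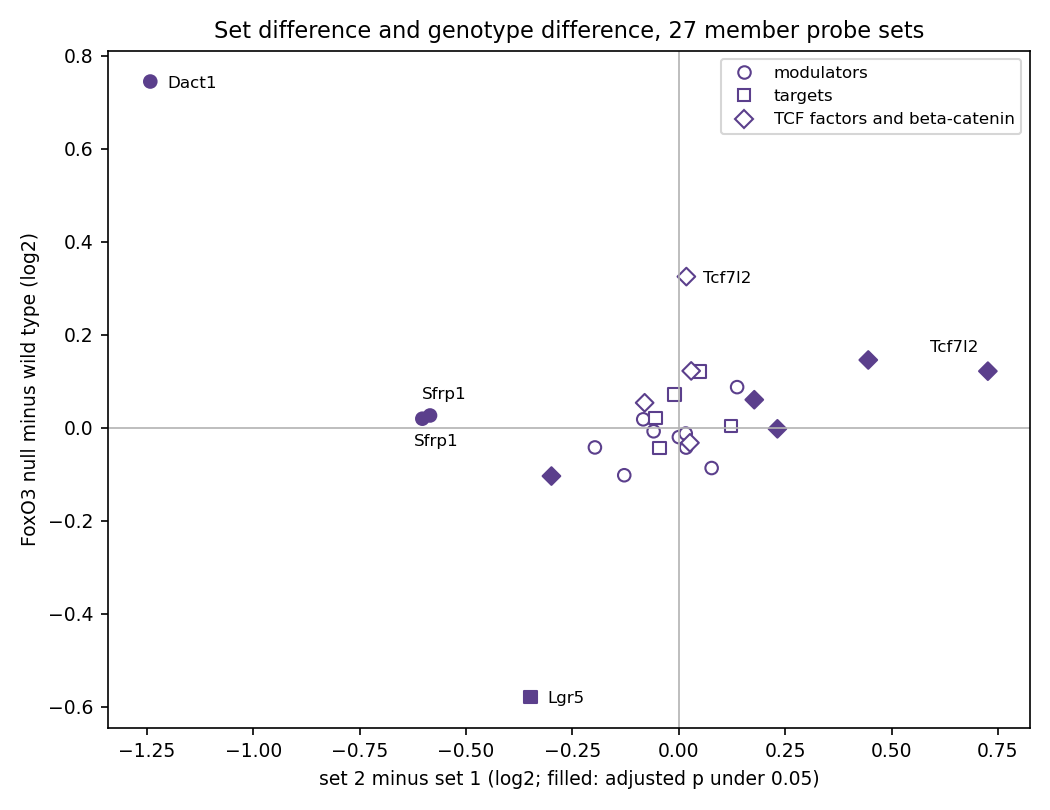
Set 2 minus set 1 (horizontal axis, log2) against FoxO3 null minus wild type (vertical axis, log2) for the 27 probe sets, with symbols by role and filled where the set difference had an adjusted p under 0.05. Dact1 lies far out on both axes, at -1.24 and 0.74, Tcf7l2 1426639_a_at on the genotype axis alone and both labelled Sfrp1 probe sets on the set axis alone.

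Other genes of the pathway were taken by role, 1 probe set per gene, and 104 of 106 listed genes were measured. Of these, 2 were higher and 1 lower in FoxO3 null arrays and 101 did not pass, beside 1.12% of 18193 genes that passed, 0.242% as higher and 0.874% as lower. Groups did not overlap in 2 of the 104, Sostdc1 and Id2, beside 3.72% of all genes. At an unadjusted p under 0.05 there were 21 of 104 genes, beside 14.5% of 18193. The median log2 difference was 0.03, with 63 positive and 41 negative.

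Among the 15 secreted and surface inhibitors, Sostdc1, a secreted antagonist of BMP and Wnt signalling on chromosome 12, was higher. It read 7.03, 7.36, 7.13 and 6.87 in FoxO3 null arrays, all above the wild type arrays at 6.78, 6.64, 6.58 and 6.43 (log2). The difference was 0.49 ± 0.09 (SE, limma adjusted p = 0.0314), and 1 of its 2 probe sets passed. The other, 1460250_at, also differed by 0.49, with genotypes that overlapped. Draxin, in the same class, was lower by a log2 difference of -0.40 ± 0.08 and did not pass (limma adjusted p = 0.051). Its FoxO3 null arrays lay below wild type within each set. Of the 15 differences in this class, 11 were positive and 4 negative. The 15 genes classed as cytoplasmic transducers and modulators include membrane proteins. Among them Celsr1, a cadherin of the planar cell polarity branch on chromosome 15, was higher. It read 7.91, 7.78, 7.36 and 7.21 in FoxO3 null and 7.40, 7.43, 6.94 and 6.90 in wild type arrays, separate within each set. The difference was 0.40 ± 0.06 (limma adjusted p = 0.0144).

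Of the 10 other targets, Id2, an inhibitor of bHLH factors that Wnt and BMP signals both induce, on chromosome 12, was lower and the other 9 did not pass. It read 9.42, 9.45, 9.68 and 9.87 in FoxO3 null arrays, all below the wild type arrays at 10.33, 10.07, 10.47 and 10.11 (log2). The difference was -0.64 ± 0.10 (SE, limma adjusted p = 0.0172), and 2 of its 3 probe sets passed. Among the targets that did not pass, Ccnd1, which encodes cyclin D1, differed by -0.04 ± 0.05 and Myc by 0.09 ± 0.06.

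No gene passed among the 19 ligands, where 2 had an unadjusted limma p under 0.05, and Wnt5a, a ligand mostly of the non-canonical branches, had the smallest p. It differed by 0.26 ± 0.08 (SE, limma adjusted p = 0.187). Of 15 receptors and co-receptors 0 passed, 4 at an unadjusted p under 0.05, led by Fzd7, a Frizzled receptor, at -0.27 ± 0.08 (limma adjusted p = 0.179). Of the 2 secretion genes 0 passed and 1 had an unadjusted p under 0.05, Porcn, the acyltransferase that lipidates Wnts, at -0.17 ± 0.06 (limma adjusted p = 0.242). The 8 genes of R-spondins, their receptors and ligases had 0 passing and 0 at an unadjusted p under 0.05, with Rnf43, a ligase that removes Frizzled receptors, at 0.08 ± 0.05. The 9 destruction complex genes likewise had 0 and 0, with Apc at 0.12 ± 0.06. Of 11 nuclear partners 0 passed and 1 had an unadjusted p under 0.05, the Groucho corepressor Tle3, at 0.21 ± 0.06 (limma adjusted p = 0.154). Left out in turn, the arrays left Celsr1 passing in 5 of 8 fits, Id2 in 4 and Sostdc1 in 1, and 0 of the 3 passed with the Y-linked covariate.

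**Figure D5:**
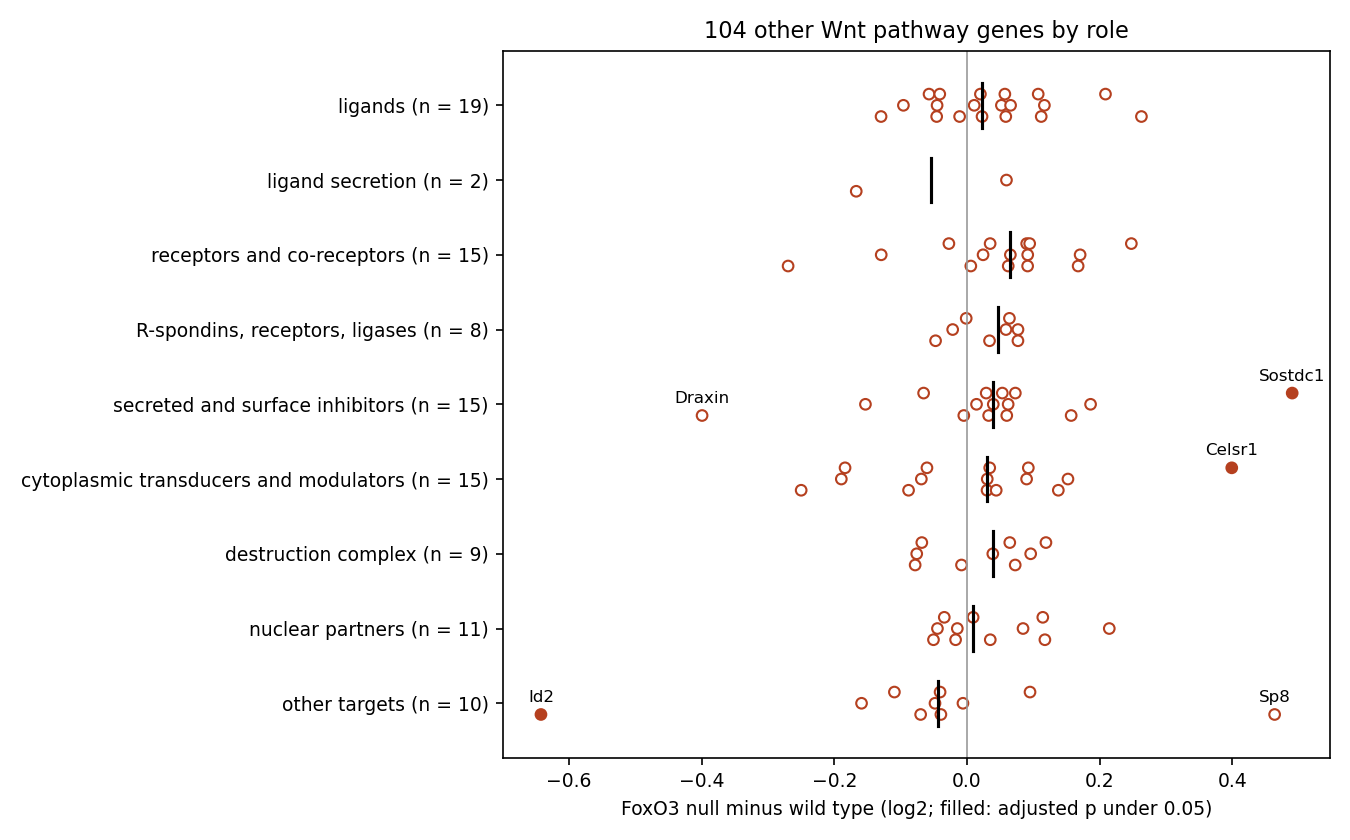
FoxO3 null minus wild type differences (log2) of 104 other Wnt pathway genes by role, 1 point per gene, with the median of each role as a black line, points offset up and down to keep them apart, and filled where the adjusted p was under 0.05. Sostdc1 at 0.49, Celsr1 at 0.40 and Id2 at -0.64 are filled, and Draxin and Sp8 are labelled though they did not pass.

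Between sets, 50 of the 104 genes differed, or 48.1%, beside 41.6% of all 18193 genes, with 29 higher and 21 lower in set 2, beside 21.3% of all genes higher and 20.3% lower. All 7 ligands that differed between sets were lower in set 2, but 5 of them lay below the median level of the array. The 2 above it were Wnt7a, at -0.67 ± 0.06 (SE), and Wnt4, at -0.36 ± 0.11, while Fzd9 was higher by 1.12 ± 0.10 and Ccnd1 by 0.68 ± 0.05. Wnt7a, Wnt4, Fzd9 and Ccnd1 were chosen after their values were seen. The interaction of genotype and set passed in 0 of the 104 genes (limma), with 12 at an unadjusted p under 0.05. Of all 18193 genes 0.104% passed and 7.81% had such an unadjusted p.

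The genes whose pattern was most like that of Dact1 over the 8 arrays, after each set mean was taken off, were Ivd (Pearson r = 0.9945), Tmem181a (0.9916) and Tenm4 (0.9847). Their own genotype differences were smaller, at 0.13, 0.21 and 0.30 (log2), against 0.74 for Dact1. For Lgr5 1450988_at the nearest were Slc6a9 (0.9926), Fat3 (0.9926) and Disp2 (0.9908), with differences of -0.15, -0.25 and -0.39. These are the best of 18193 genes over 8 arrays that share their sets, so high values are found by the search itself, and they are given as a description.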

How the data were processed

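RNA of 8 neurosphere samples was hybridised to Affymetrix Mouse430_2 arrays, 1 per array. The deposited values are log2 expression from RMA, as the submitters' processing notes state, of a version not given in the sources here. RMA makes array distributions alike (array medians 6.27 to 6.31), so differences are relative to the other genes of the array. Of 45101 probe sets, 64 controls were left out. The platform annotation gave 1 symbol to 34945 probe sets, several to 932 and none to 9160. Positions are from RefSeq on GRCm38.p6.

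The comparison of genotypes used lmFit and eBayes of limma 3.58.1 (R 4.3.3) on the deposited log2 values over all 45037 probe sets, with set as a term, two-sided, with Benjamini-Hochberg adjustment and a threshold of 0.05. Differences are FoxO3 null minus wild type. In the wider list, which was taken by role, a gene stands for its probe set with the highest mean. The 4 arrays per group limit the precision. The script was tested on simulated data. The members and lists were chosen with earlier results of these data known. Named are every probe set of the 10 genes and of Foxo3, from each class of the wider list every passing gene or otherwise the gene with the smallest p, and the 3 genes nearest in pattern to Dact1 and Lgr5. Genes outside this rule were chosen after their values were seen. Among them are Sp8, Draxin, Ccnd1, Myc, Wnt7a, Fzd9, the Sostdc1 probe set 1460250_at and the markers Gad1, Slc1a2, Mbp, Pdgfra and Cspg4. The genes listed for a closer look (Wnt4, Wnt7b, Wls, Rspo4, Sfrp4, Tle1 and Ctbp1) are also among them. Alternatives changed the set term, normalization, filters, variance model, threshold, blocks, representative probe set and arrays left out. Figures were drawn with matplotlib 3.10.9 in Python 3.11.15.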

Additional observations from a re-analysis of the deposited data

Results flagged for a closer look

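In Sfrp1 1448395_at both FoxO3 null arrays lay below both wild type arrays in set 1 and above them in set 2, and the genotype difference of set 2 minus that of set 1 was 0.51 on the log2 scale (limma interaction, adjusted p = 0.334). Among all probe sets, 5.62% split in opposite directions in this way. In the wider list 7 genes did so, and the difference of set 2 minus that of set 1 was 0.52 for Wnt4, -0.56 for Wnt7b, -0.5 for Wls, -0.35 for Rspo4, 0.2 for Sfrp4, 0.32 for Tle1 and -0.09 for Ctbp1. The interaction was tested for each and passed in 0 of them (limma, adjusted p from 0.218 for Wnt7b to 0.908 for Ctbp1), with the unadjusted counts given above.

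In Lef1 1421299_a_at the wild type array 1_2 read 4.77, against 4.95 in each of the other 3 wild type arrays, a gap of 0.967 of the group's range. The probe set is dim. This was 1 of 54 groups of 4 arrays checked, and chance flags about 1 in 20.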

How the results depend on the processing

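Left out in turn, the arrays left 1 to 2 of the 27 probe sets passing and 0 to 3 of the wider list's genes. Of all probe sets, 83 to 271 passed in these fits. With no set term 0 and 0 passed (2 and 7 at an unadjusted p under 0.05, limma, 3 of all probe sets passing). With the 2 arrays of each set and genotype averaged, 1 (Dact1) and 0 passed, beside 39 of all probe sets. With a covariate for the Y-linked mean, which correlates with genotype within sets at -0.861, 0 and 0 passed (4 and 11 unadjusted), as did 0 of all 45037 probe sets (2890 unadjusted). With set and genotype as a random block 3 and 6 passed, at a consensus correlation of -0.264, beside 1354 of all probe sets. A variance trend gave 3 and 5, beside 825 of all probe sets, where the main fit passed 361. With no moderation of the variance, added after seeing the data, 0 of 27 passed (5 unadjusted), and 0 of all probe sets. Whether the numbers within sets pair the arrays is not in the labels. The correlation of deviations was 0.074 in set 1 and -0.058 in set 2, which cannot decide it. With a replicate block of set and number 1 of 27 (Dact1), 1 wider gene (Celsr1) and 138 of all probe sets passed. Quantile normalization again and a threshold of 0.10 left 3 of 27, beside 389 and 714 of all probe sets. A filter on dim probe sets left 3 of the 20 it kept, beside 467 of all 22518 it kept. These last 3 alternatives, the variance trend and leaving out each array were also run for the interaction and the set difference. The interaction passed in 0 of 27, or of the 20 kept by the filter, and the set difference in 7 to 10. Over these 17 alternatives, the threshold of 0.10 aside, Dact1 ranged from 0.60 to 0.78 and passed in 14, Lgr5 1450988_at from -0.65 to -0.35 and passed in 5, and Tcf7l2 1426639_a_at from 0.28 to 0.37 and passed in 5, with adjusted p from 0.000128 to 1, 0.00789 to 0.901 and 0.00683 to 0.738 (limma). Of 452 values over the 27 probe sets, 438 moved by less than 1 SD, 14 by more, and 0 that passed changed sign. The cause of these changes was not tested. Dim probe sets (7 of 27) limit what can be seen of Dkk3, Lef1, Sfrp1 1460187_at and the second Lgr5 and Axin2 probe sets.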
